A study of Homo sapiens with 14 samples.

Results

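The sites described here are the positions on human chromosome 19 at which RNA from HEK293T cells read guanosine in place of adenosine after treatment with an RNA base editor. They were chosen by the authors' listing of a site in any of 14 deposited lists and by its chromosome name, with no cut on the level, which gave 2580 distinct sites of 26172 in the whole series. HEK293T is a transformed human embryonic kidney line that takes up plasmids readily. A list stands for 1 library of polyadenylated RNA, and the A-to-G rate it records at a site, a fraction, is called the editing level here. The lists hold no expression values, so the cell line could not be checked against marker genes.

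The libraries formed 7 groups of 2, named by editor and guide. Repair.v2 and Repair.t1 were each sampled with the NT guide and with the EZH2_A22 guide. The NT guide and the EZH2 guide were used with dCas13d-ADAR, and only the MALAT1 guide with DECOR. NT and A22 are not explained in the labels, which give no dose or time and do not tell whether a group's libraries are separate cultures. The p-values below therefore measure the spread between libraries, which may be technical. DECOR libraries were read for 62 and 160 cycles and all others for 25 and 97 cycles, so the effects of its editor, its guide and its read length cannot be told apart. There was no library without an editor, and the sites found in untreated cells are not known.

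RNA base editors carry an adenosine deaminase that converts adenosine to inosine, which reverse transcriptase reads as guanosine. The deaminase domain of ADAR acts on double-stranded RNA, and a catalytically inactive Cas13 with a guide RNA brings such a domain to a chosen transcript. Editing away from that transcript is called off-target editing. Chromosome 19 has the highest density of genes of the human chromosomes, is rich in Alu repeats, which can pair into the long RNA duplexes that ADAR enzymes prefer, and holds large clusters of zinc finger genes on either side of its centromere.

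Positions are those of hg19 (GRCh37). Genes, strands and sequence around the positions were not analysed here, for want of an annotation in that build. Depth is unknown, per library and per site, and a position missing from a list may have been unedited, below the authors' threshold or thinly covered. The lists held 46 to 101 sites in Repair.v2 libraries, 4356 to 4784 in Repair.t1, 5730 to 5834 in dCas13d-ADAR and 5516 to 5855 in DECOR.

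The numbers of chromosome 19 sites stood apart by editor. In Repair.v2 there were 3 and 3 sites with NT and 7 and 4 with EZH2_A22. Repair.t1 listed 417 and 341 sites with NT and 402 and 398 with EZH2_A22, and dCas13d-ADAR listed 753 and 736 with NT and 750 and 715 with EZH2. The DECOR libraries listed 583 and 602. The ranges of the 4 editors did not overlap. The mean was 4.25 ± 1.89 sites in Repair.v2 (SD, n = 4), 389.5 ± 33.4 in Repair.t1 (n = 4), 738.5 ± 17.3 in dCas13d-ADAR (n = 4) and 592.5 ± 13.4 in DECOR (n = 2). These numbers, and the shares and densities that follow from them, belong to the rule that chose the sites and carry no test.

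By share of the list the editors had the same order, although the ranges of Repair.v2 and Repair.t1 overlapped. Chromosome 19 held 8.37 ± 0.442% of a Repair.t1 list (SD, n = 4, range 7.83 to 8.90%) and 12.8 ± 0.333% of a dCas13d-ADAR list (n = 4, range 12.3 to 13.1%). It held 10.4 ± 0.203% of a DECOR list (n = 2) and 6.26 ± 1.69% of the short Repair.v2 lists (n = 4, range 3.96 to 8.05%). The share in dCas13d-ADAR was 1.52 times that in Repair.t1, and this ratio ranked 1 among the 23 chromosomes with sites. Chromosome 22 came next at 1.37, then chromosome 16 at 1.31 and chromosome 20 at 1.20. Within an editor the guides lay close together: the mean share was 8.37% with NT and 8.38% with EZH2_A22 in Repair.t1, and 12.9% with NT and 12.6% with EZH2 in dCas13d-ADAR.

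**Figure D1:**
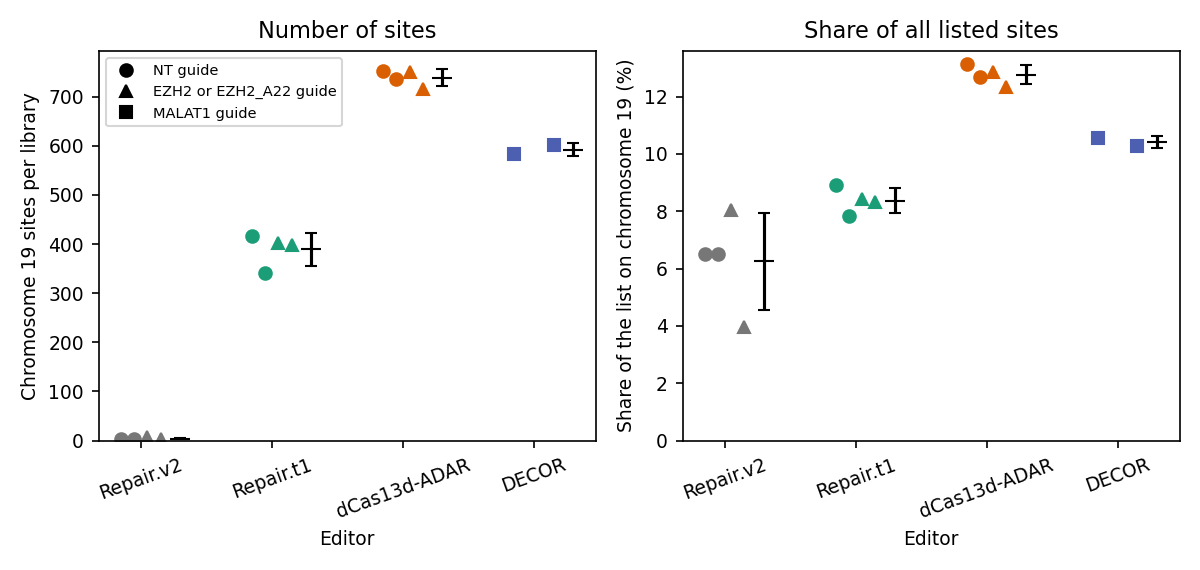
Number of chromosome 19 sites per library (left) and their share of the library's whole list in percent (right) for the 4 editors. Each marker is 1 library, shaped by guide, and the black bar with whiskers is the mean ± SD; the dCas13d-ADAR libraries lie highest in both panels, with shares from 12.3 to 13.1%.

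The sites were spread over most of the chromosome, with the same empty stretches in Repair.t1, dCas13d-ADAR and, but for 1 bin, DECOR. Of the 60 bins of 1 Mb up to the last site, 46 held a site in some library and 14 held none. The widest gap ran from 24010541 to 29698456, a span of 5.69 Mb, and the next from 19756250 to 24010528, 4.25 Mb. Between these gaps, the bin from 24 to 25 Mb held sites of DECOR only. In an occupied bin, Repair.t1 listed a mean of 8.79 sites per library, dCas13d-ADAR 16.5 and DECOR 13.3.

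The bin from 1 to 2 Mb, close to the short-arm end, was the densest for Repair.t1 and for dCas13d-ADAR. It held 33.5 ± 4.73 Repair.t1 sites per library (SD, n = 4) and 52.8 ± 2.50 dCas13d-ADAR sites (n = 4), but 18 ± 1.41 DECOR sites (n = 2). The other bins among the densest 5 of Repair.t1 were 3 to 4 Mb (24.3 sites), 10 to 11 Mb (23.3), 18 to 19 Mb (20.8) and 2 to 3 Mb (20.3). The same 5 bins led in dCas13d-ADAR, with 39.8 sites at 10 to 11 Mb, 38.5 at 18 to 19 Mb, 36.8 at 2 to 3 Mb and 35.8 at 3 to 4 Mb. DECOR had another order. Its densest bin was 14 to 15 Mb with 71 sites per library, followed by 49 to 50 Mb (43), 10 to 11 Mb (38), 3 to 4 Mb (33.5) and 47 to 48 Mb (30).

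Across bins, the mean site numbers of Repair.t1 and dCas13d-ADAR had a Pearson correlation of 0.958 (Spearman 0.927, 45 bins). Those of Repair.t1 and DECOR had 0.656 (Spearman 0.835, 46 bins), and those of dCas13d-ADAR and DECOR 0.647 (Spearman 0.845, 46 bins). Without the bin from 14 to 15 Mb the 2 values with DECOR were 0.769 and 0.787. The bins share the gene content and expression of 1 cell line, so these values describe the lists and carry no test.

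**Figure D2:**
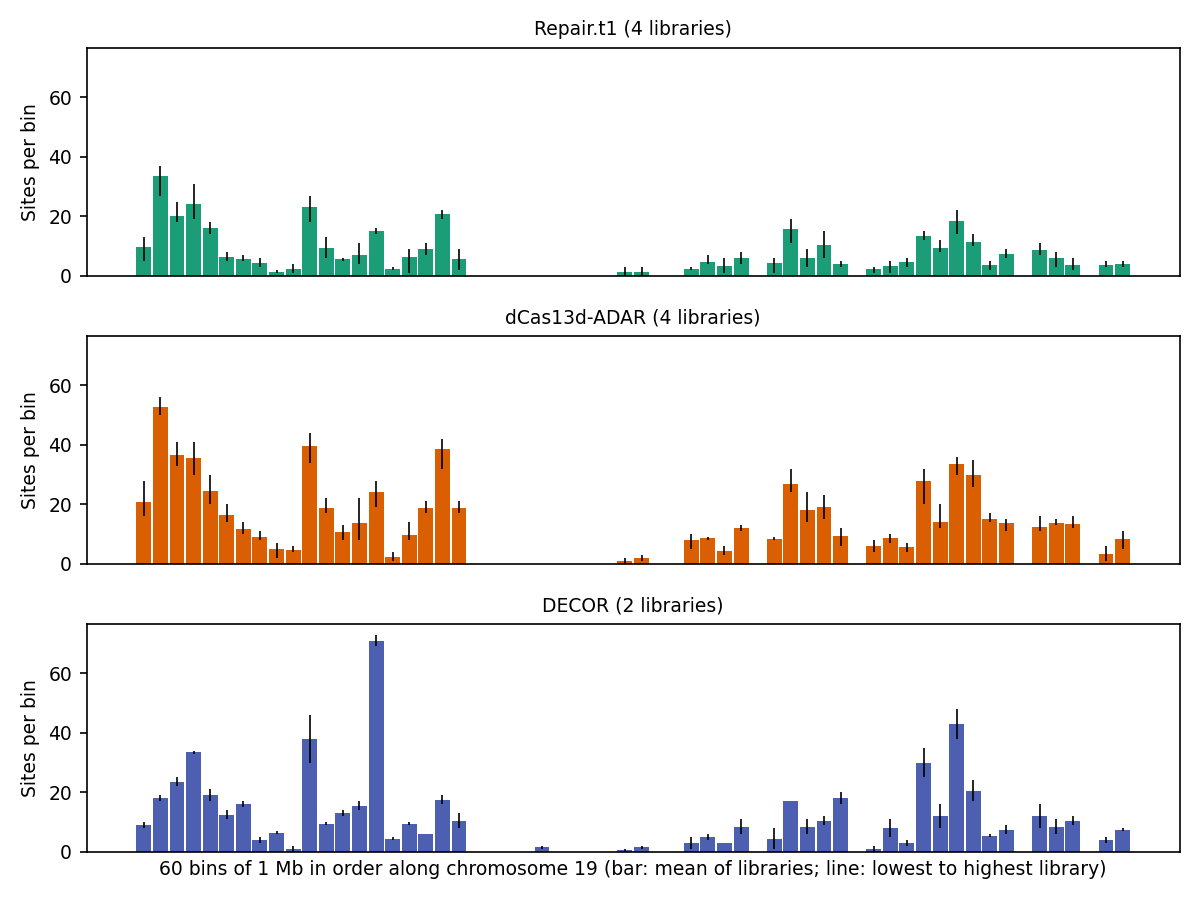
Sites per 1 Mb bin, in order along chromosome 19 from the short-arm end, for Repair.t1, dCas13d-ADAR and DECOR. Bars are the mean of the editor's libraries and lines run from the lowest to the highest library; the profiles of the upper panels have the same leading bins, and the tallest DECOR bar, 71 sites per library, is the bin from 14 to 15 Mb.

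Scaled to the length of the list, most chromosome 19 bins held more sites in dCas13d-ADAR than in Repair.t1. The comparison was made on log2 of sites per 1000 listed sites plus 0.5. It covered the bins of the whole genome with a mean of at least 3 sites over the 8 libraries of both editors. Of the 42 such bins on chromosome 19, 40 were above 0 and 2 below. A bin could pass through its dCas13d-ADAR sites, as at 8 to 9 Mb, with means of 5 sites there and 1.25 in Repair.t1. Left out as sparse were 15 to 16 Mb and 29 to 30 Mb, lower per 1000 in dCas13d-ADAR, and 30 to 31 Mb, higher. The median log2 fold was 0.52 on the chromosome and 0.09 over all 465 bins. With a mean of at least 1 site these were 0.51 and -0.09, and with at least 5 sites 0.52 and 0.18. The 2 bins below 0 were 46 to 47 Mb (log2 fold -0.02) and 58 to 59 Mb (-0.31). Like the share of the list, these values follow from which sites were listed, and they are given as a description with no test.

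The size of the difference varied along the chromosome. The bin from 51 to 52 Mb held 2.63 ± 0.217 dCas13d-ADAR sites per 1000 listed sites (SD, n = 4, range 2.42 to 2.93) and 0.801 ± 0.252 Repair.t1 sites (n = 4, range 0.459 to 1.07), a log2 fold of 1.29. Most of these sites lay in 1 window of 1 kb, from 51301001 to 51302000, with 12, 14, 12 and 12 sites in the dCas13d-ADAR libraries and 4, 1, 3 and 2 in those of Repair.t1. With each window counted once, this bin fell below the filter on sparse bins. In the bin from 19 to 20 Mb the values were 3.24 ± 0.312 and 1.24 ± 0.621 sites per 1000 (SD, n = 4 each), a log2 fold of 1.19. The libraries of the editors did not overlap in either bin, but both bins were named for the size of this difference. Of the next 8 bins by size, 56 to 57 Mb had a log2 fold of 1.15, 40 to 41 Mb 1.07, 50 to 51 Mb 0.94, 5 to 6 Mb 0.86, 33 to 34 Mb 0.84, 45 to 46 Mb 0.81, 8 to 9 Mb 0.78 and 55 to 56 Mb 0.73.

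Against the average of the other 2 long-list editors, DECOR had more sites per 1000 in some chromosome 19 bins and fewer in others. Of 42 bins, 17 were above 0 and 25 below, and the median log2 fold was -0.15, beside -0.11 over 475 bins genome-wide. The bin from 14 to 15 Mb held 12.5 ± 1.02 DECOR sites per 1000 listed sites (SD, n = 2) and 3.69 ± 0.688 sites of the other editors (n = 8), a log2 fold of 1.65. With each 1 kb window counted once, the log2 fold of this bin was 0.05. The next highest bins were 42 to 43 Mb (1.12), 8 to 9 Mb (0.72), 6 to 7 Mb (0.67) and 49 to 50 Mb (0.60). With windows counted once these had log2 folds of 0.52, 0.92, 0.23 and 0.36 in the same order.

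The lowest bin by log2 fold was 1 to 2 Mb, the densest bin of the other editors. It held 3.16 ± 0.115 DECOR sites per 1000 (SD, n = 2) against 8.16 ± 1.23 (n = 8), a log2 fold of -1.23. All 8 libraries of the other editors, from 5.77 to 9.67 sites per 1000, lay above both DECOR libraries in this bin, named for its fold. With windows counted once its log2 fold was -0.67. The next lowest were 17 to 18 Mb (-0.95), 44 to 45 Mb (-0.88), 9 to 10 Mb (-0.79), 18 to 19 Mb (-0.73) and 0 to 1 Mb (-0.61). With windows counted once, 17 to 18 Mb had -0.73, 44 to 45 Mb -0.94, 18 to 19 Mb -0.11 and 0 to 1 Mb -0.45. The bin from 9 to 10 Mb then fell below the filter on sparse bins.

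The excess of DECOR sites at 14 to 15 Mb came from 3 adjoining windows of 1 kb, from 14625001 to 14628000. This stretch held 55 and 52 sites in the 2 DECOR libraries, 9.43% and 8.64% of their chromosome 19 sites. Repair.t1 libraries listed 1, 3, 0 and 2 sites there, dCas13d-ADAR libraries 3, 1, 4 and 5, and Repair.v2 libraries none. DECOR listed 59 distinct positions in the stretch, of which 48 were in both of its libraries and 3 were also listed by Repair.t1 or dCas13d-ADAR. The window from 14626001 to 14627000 alone held 32 sites in each DECOR library. Levels in the stretch ran from 0.131 to 0.636 in DECOR replicate 1, with a median of 0.289, and from 0.131 to 0.574 in replicate 2, with a median of 0.281. Leaving it out lowered the DECOR share of chromosome 19 from 10.4% to 9.57 ± 0.135% (SD, n = 2), and the median DECOR level on the chromosome to 0.206 and 0.2 in the 2 libraries.

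**Figure D3:**
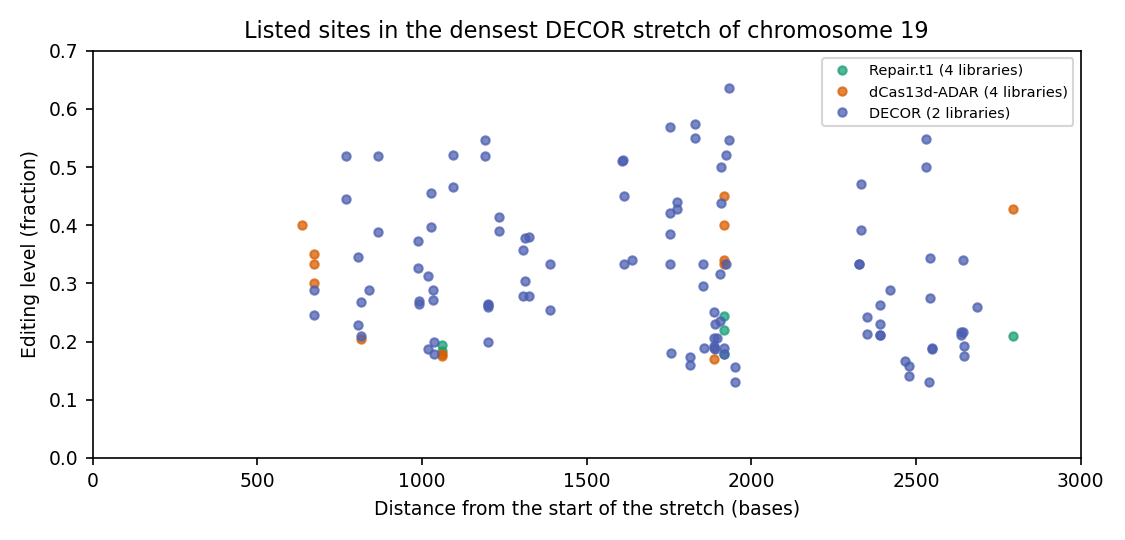
Editing level (fraction) of every listed site in the stretch from 14625001 to 14628000, against distance in bases from its start, for 4 Repair.t1, 4 dCas13d-ADAR and 2 DECOR libraries. Each point is 1 site in 1 library; DECOR points fill the stretch with 55 and 52 sites per library, where no other library has more than 5.

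The spacing of sites on chromosome 19 and elsewhere differed by editor. The share of sites with another listed site within 50 bases was 30.0% on chromosome 19 and 24.8% elsewhere in dCas13d-ADAR (means over libraries), and higher on chromosome 19 in each of its 4 libraries. In Repair.t1 it was 20.2% and 21.6%, with NT replicate 1 the other way round, at 22.3% and 21.3%. In DECOR it was 38.0% and 32.1%. Without the dense stretch the DECOR libraries had 31.3% and 34.0% on chromosome 19, a mean of 32.6%. These were 1 below and 1 above their values elsewhere of 32.0% and 32.1%, where no dense stretch was left out. A 1 kb window with a site held 1.5 ± 0.0300 sites on chromosome 19 and 1.41 ± 0.0144 elsewhere in dCas13d-ADAR (SD, n = 4), and 1.34 ± 0.0178 and 1.32 ± 0.0155 in Repair.t1 (n = 4). In DECOR it held 1.68 ± 0.00241 on chromosome 19, 1.54 ± 0.00703 there without the stretch, and 1.5 ± 0.00229 elsewhere (n = 2). DECOR had 17 and 25 pairs of sites 2 bases apart on the chromosome, 11 and 20 of them left without the stretch, where no library of Repair.t1 or dCas13d-ADAR had more than 6. These are descriptions of the lists with no test.

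Repair.t1 and dCas13d-ADAR listed many of the same chromosome 19 positions, and DECOR listed almost none of them. Over its libraries, Repair.t1 listed 856 distinct sites, dCas13d-ADAR 1477, DECOR 916 and Repair.v2 11. Repair.t1 and dCas13d-ADAR had 622 in common, which is 72.7% of the Repair.t1 sites and 42.1% of the dCas13d-ADAR sites; the same shares elsewhere in the genome were 52.9% and 47.7%. DECOR had 19 in common with Repair.t1 (2.22% of the Repair.t1 sites and 2.07% of its own) and 44 with dCas13d-ADAR (2.98% and 4.80%). The overlap with DECOR was small elsewhere too, at 1.88% and 2.19% for Repair.t1 and 2.31% and 2.99% for dCas13d-ADAR. In no other editor's lists were 231 Repair.t1 sites, 825 dCas13d-ADAR sites and 869 DECOR sites, 94.9% of the last.

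The overlap of single lists had the same pattern. When a Repair.t1 library was set beside 1 of dCas13d-ADAR, 62.2 ± 1.96% of the shorter chromosome 19 list was in the longer one (SD over 16 pairs), where 42.3 ± 0.523% was elsewhere. The lowest of the 16 pairs on chromosome 19 had 59.5% and the highest elsewhere 43.2%, so the ranges did not overlap. As a share of the longer list the order was reversed, with means of 32.8% on chromosome 19 and 35.6% elsewhere. Shared sites over all sites of both lists (the Jaccard index) had means of 27.3% and 24.0%. Within a group the share was 50.3% on chromosome 19 and 44.9% elsewhere in Repair.t1, 56.0% and 49.7% in dCas13d-ADAR, and 46.1% and 36.4% in DECOR. Of the 269 chromosome 19 sites shared by the DECOR libraries, 48 lay in the dense stretch. Between DECOR and the others it was 2.58% on chromosome 19 for dCas13d-ADAR and 1.74% for Repair.t1, beside 1.94% and 1.55% elsewhere. A list that is longer on chromosome 19 can take in more of a shorter one, and pairs of libraries are not independent, so no test was made.

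Sites that Repair.t1 listed and dCas13d-ADAR did not were few on this chromosome. In a Repair.t1 library, 17.8 ± 0.640% of chromosome 19 sites were in no dCas13d-ADAR list (SD, n = 4), against 35.8 ± 0.430% elsewhere. In a dCas13d-ADAR library, 42.8 ± 1.18% of chromosome 19 sites were in no Repair.t1 list (n = 4), against 39.7 ± 0.375% elsewhere. Put the other way, chromosome 19 held 4.36 ± 0.387% of the Repair.t1 sites that dCas13d-ADAR lacked and 10.5 ± 0.469% of those it listed. Sites listed in all 4 libraries of an editor were 95 for Repair.t1 and 256 for dCas13d-ADAR. That is 11.1% of the distinct chromosome 19 sites of Repair.t1 and 17.3% of those of dCas13d-ADAR, beside 9.78% and 13.0% elsewhere. DECOR had only 2 libraries, and 269 sites were in both, 29.4% on chromosome 19 beside 21.4% elsewhere. These shares cannot be set against those over 4 libraries.

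A total of 36 sites were in all 4 dCas13d-ADAR lists and in no Repair.t1 list, and 1 site had the opposite pattern. The 36 were 14.1% of the 256 sites in all dCas13d-ADAR lists, where the same share elsewhere was 10.1% (142 of 1409). The 1 site was 1.05% of the 95 in all Repair.t1 lists, where it was 8.14% elsewhere (78 of 958). The highest of the 36 was position 41306676, with levels of 0.455, 0.75, 0.4 and 0.571 in dCas13d-ADAR. Position 10662906 followed at 0.316, 0.647, 0.5 and 0.542. The next 3 by mean level were 40964303 (0.422), 56670998 (0.404) and 16641457 (0.399). The single site in all Repair.t1 lists and no dCas13d-ADAR list was position 34960206, at 0.321, 0.412, 0.304 and 0.364. A single site, position 3984177, was in all 10 libraries of Repair.t1, dCas13d-ADAR and DECOR, with mean levels of 0.241, 0.344 and 0.267.

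All 11 chromosome 19 sites of Repair.v2 were also listed by dCas13d-ADAR, and 9 of them by Repair.t1. Position 16302148 was in 3 Repair.v2 libraries, at 0.231, 0.190 and 0.174. Its level was 0.476, 0.45, 0.542 and 0.455 in Repair.t1 and 0.579, 0.591, 0.714 and 0.609 in dCas13d-ADAR, so the 3 editors did not overlap there. Positions 1227724, 3976604, 10421104 and 40328475 were in 2 Repair.v2 libraries each. Their mean Repair.v2 levels were 0.233, 0.121, 0.257 and 0.117 over the libraries that listed them. Their mean levels were 0.394, 0.366, 0.462 and 0.266 in Repair.t1 and 0.466, 0.475, 0.678 and 0.393 in dCas13d-ADAR. Among these 3 editors, each of the 5 was thus lowest in Repair.v2 and highest in dCas13d-ADAR by mean level. DECOR listed position 40328475 in replicate 2 alone, at 0.0851, below its Repair.v2 mean, and listed none of the others. No chromosome 19 site was in all 4 Repair.v2 libraries.

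The median level of chromosome 19 sites lay close to 0.25 in Repair.t1 and dCas13d-ADAR and lower in DECOR. It was 0.25, 0.235, 0.235 and 0.238 in the Repair.t1 libraries and 0.256, 0.25, 0.25 and 0.25 in those of dCas13d-ADAR. In DECOR it was 0.211 and 0.207. Repair.v2 gave 0.231, 0.190, 0.231 and 0.156, each over only 3 to 7 sites. DECOR lay below every library of Repair.t1 and dCas13d-ADAR, whose own values met at 0.25.

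Between dCas13d-ADAR and Repair.t1 the difference in median level was 0.0118, which did not pass (two-sided exact permutation p = 0.114, adjusted p = 0.114 over the 3 pairs of these editors with Repair.v2). Repair.t1 exceeded Repair.v2 by 0.0377 and dCas13d-ADAR exceeded it by 0.0495 (exact permutation adjusted p = 0.0429 for each, n = 4 each). Both raw p-values were 0.0286, the smallest that 4 libraries against 4 can give. The Repair.v2 medians rest on 3 to 7 sites a library, and on all other chromosomes Repair.v2 was not lower. There its medians were 0.273, 0.25, 0.267 and 0.25. Those of Repair.t1 ran from 0.25 to 0.267 and those of dCas13d-ADAR from 0.267 to 0.273. DECOR minus dCas13d-ADAR was -0.0427 and DECOR minus Repair.t1 was -0.0310, and the exact permutation p was 0.133 for each, the smallest that 2 libraries against 4 can give, with an adjusted p of 0.2. DECOR minus Repair.v2 was 0.00673 (exact permutation p = 1). At a minimum level of 0.1 the differences of Repair.t1 and dCas13d-ADAR from Repair.v2 were 0.0353 and 0.0476 and no longer passed. Without Repair.v2 EZH2_A22 replicate 2, DECOR minus Repair.v2 was -0.00863.

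Levels on chromosome 19 were a little below those elsewhere in the same lists for Repair.t1 and dCas13d-ADAR. The median on chromosome 19 minus the median elsewhere was 0, -0.0147, -0.0279 and -0.0286 in the Repair.t1 libraries. It was -0.0109, -0.0227, -0.0192 and -0.0167 in dCas13d-ADAR, and 0 and -0.00144 in DECOR. The value was below 0 in 8 of the 10 libraries and 0 in the other 2. Its mean was -0.0142 (two-sided exact sign-flip permutation p = 0.00781, the smallest that 10 libraries with 2 values at 0 can give). With means in place of medians it was -0.0147, with 8 libraries below 0 and the 2 DECOR libraries above. The libraries list many of the same sites, so this p covers only the spread between libraries. The value itself differed by 0.000416 between dCas13d-ADAR and Repair.t1 (two-sided exact permutation p = 0.943). With means in place of medians, dCas13d-ADAR exceeded Repair.t1 by 0.00835 (two-sided exact permutation p = 0.0286, adjusted p = 0.0857 over 3 pairs of editors). On means the libraries did not overlap, from -0.0262 to -0.0205 in Repair.t1 and from -0.0186 to -0.0109 in dCas13d-ADAR.

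High levels were rarer on the chromosome in these editors too. In Repair.t1, 2.47 ± 0.683% of chromosome 19 sites had a level of 0.5 or more (SD, n = 4), and 4.80 ± 0.425% of sites elsewhere did. In dCas13d-ADAR the shares were 5.64% and 7.06%, and in DECOR they were 2.45% and 1.60%. The dCas13d-ADAR EZH2 replicate 1 library went the other way from its editor, with 6.93% on chromosome 19 and 6.27% elsewhere. Without the dense stretch, the shares on chromosome 19 in the DECOR libraries were 0.947% and 1.45%, below those elsewhere. No dense stretch was left out elsewhere, so the 2 sides were not treated alike.

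**Figure D4:**
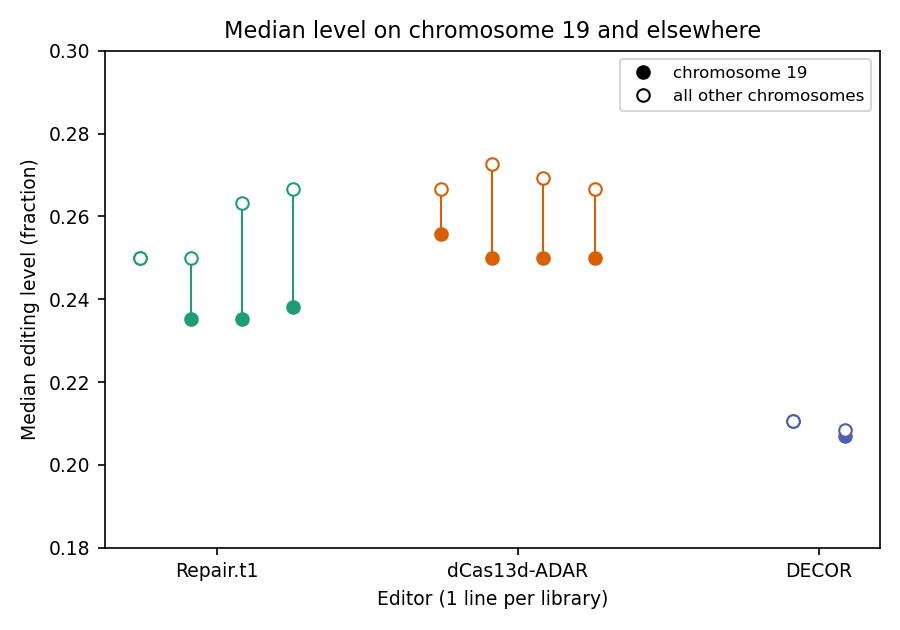
Median editing level (fraction) of chromosome 19 sites (filled) and of sites on all other chromosomes (open) in each library of Repair.t1, dCas13d-ADAR and DECOR; the vertical axis starts above 0. Each line joins the values of 1 library; the filled marker is below the open one in 8 of 10 libraries and level with it in 2.

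The difference in level between dCas13d-ADAR and Repair.t1 was clearer when the same sites were followed. Of the 2580 chromosome 19 sites, 79 were listed in all 8 libraries of these editors, as were 530 sites elsewhere. The mean level of the 79 was 0.289, 0.272, 0.299 and 0.298 in the Repair.t1 libraries and 0.377, 0.367, 0.364 and 0.356 in those of dCas13d-ADAR. All 4 dCas13d-ADAR libraries lay above all 4 of Repair.t1. The means were 0.290 ± 0.0126 and 0.366 ± 0.00879 (SD, n = 4 each), a difference of 0.0767 (two-sided exact permutation p = 0.0286, the smallest possible).

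At the 530 sites elsewhere the same difference was 0.0455. The chromosome 19 mean minus the mean elsewhere was -0.0350 ± 0.00711 in Repair.t1 and -0.00386 ± 0.0103 in dCas13d-ADAR (SD, n = 4 each). It was 0.0312 larger in dCas13d-ADAR, with no overlap between the libraries of the 2 editors (two-sided exact permutation p = 0.0286). It was 0.0367 in the NT libraries alone and 0.0257 in the EZH2 libraries alone. Taken pair by pair, 203 to 267 chromosome 19 sites were shared by a library of each editor. The mean level was higher in dCas13d-ADAR in each of the 16 pairs, by 0.0397 to 0.0678 on chromosome 19 and by 0.0186 to 0.0356 elsewhere. Sites listed in all 8 libraries have a level high enough to be listed in each, so they do not stand for the 2580.

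Single sites were tested with limma on log2 odds of the level, over all 609 sites of the genome listed in the 8 libraries. At an adjusted p below 0.05, 8 of the 79 chromosome 19 sites were called, 10.1%, all higher in dCas13d-ADAR, where 7.22% of all sites were called. The libraries of the editors did not overlap at 11 of the 79, all higher in dCas13d-ADAR, where 13.3% of all sites did not overlap. Counts of this size stand near the background. By sign alone, 71 of the 79 were higher in dCas13d-ADAR, 89.9% against 74.7% of all sites tested, and the median difference in level was 0.0680 against 0.0496. The number called was 4 without dCas13d-ADAR NT replicate 1 and 5 without Repair.t1 NT replicate 1.

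The largest difference in level was at position 47113869. It stood at 0.292, 0.231, 0.385 and 0.269 in Repair.t1 and at 0.68, 0.385, 0.565 and 0.571 in dCas13d-ADAR. The log2 odds difference was 1.55 (SE 0.37, limma adjusted p = 0.00643), and the highest Repair.t1 library met the lowest dCas13d-ADAR library. Position 19014207 stood at 0.225, 0.25, 0.15 and 0.184 in Repair.t1 and at 0.429, 0.469, 0.463 and 0.439 in dCas13d-ADAR, with no overlap. Its log2 odds difference was 1.67 (SE 0.35, limma adjusted p = 0.00445), the largest of the 8 on that scale.

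Position 36237649 stood at 0.2, 0.154, 0.16 and 0.2 in Repair.t1 and at 0.348, 0.5, 0.417 and 0.367 in dCas13d-ADAR. Position 1088522 stood at 0.15, 0.162, 0.154 and 0.132 in Repair.t1 and at 0.314, 0.371, 0.303 and 0.429 in dCas13d-ADAR. Position 4090518 stood at 0.129, 0.16, 0.154 and 0.179 in Repair.t1 and at 0.379, 0.3, 0.333 and 0.25 in dCas13d-ADAR. None of these 3 sites overlapped between editors, and their limma adjusted p-values were 0.00445, 0.00461 and 0.0155. Position 1088522 lay in the window from 1088001 to 1089000, among the densest of dCas13d-ADAR, with a mean of 6 sites per dCas13d-ADAR library and 3.25 per Repair.t1 library.

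The other 3 called sites overlapped between editors. Position 14522319 had means of 0.432 ± 0.0703 in Repair.t1 and 0.661 ± 0.171 in dCas13d-ADAR (SD, n = 4 each, limma adjusted p = 0.0126). Position 4657731 had means of 0.253 ± 0.0450 and 0.473 ± 0.149 (n = 4 each, limma adjusted p = 0.0155). Position 10421104 had 0.222, 0.412, 0.714 and 0.5 in Repair.t1, the widest spread of the 8, and 0.562, 0.769, 0.643 and 0.737 in dCas13d-ADAR (limma adjusted p = 0.0271). In the alternatives run, 10421104 lost its call on the untransformed level, when limma's variance was allowed to follow the mean level, with sites missing from 1 library let in, and without any 1 of 4 libraries: Repair.t1 NT replicate 1, Repair.t1 EZH2_A22 replicate 2, and dCas13d-ADAR NT replicates 1 and 2. Positions 14522319 and 4090518 lost theirs without any 1 of 3 libraries, Repair.t1 NT replicate 1 and dCas13d-ADAR NT replicate 1 for both, with dCas13d-ADAR NT replicate 2 for 14522319 and dCas13d-ADAR EZH2 replicate 1 for 4090518. Position 4657731 lost it without Repair.t1 EZH2_A22 replicate 2 or dCas13d-ADAR EZH2 replicate 1, and 47113869 without dCas13d-ADAR NT replicate 1. The other 3, at 19014207, 36237649 and 1088522, were called in every alternative run. The 3 largest differences the other way were at positions 1576957 (-0.0615), 3980850 (-0.0295) and 18546383 (-0.0147), none called.

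**Figure D5:**
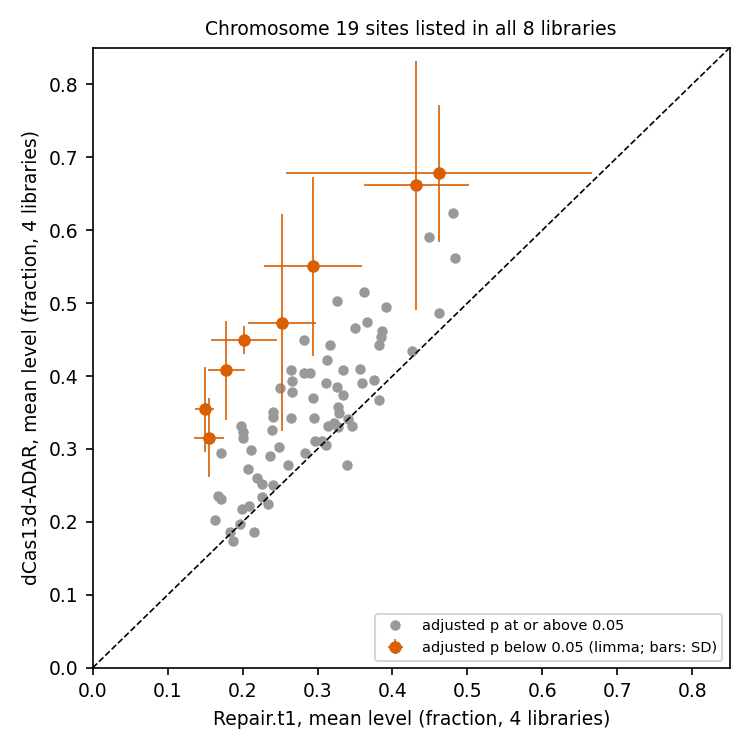
Mean editing level (fraction) of the 79 chromosome 19 sites listed in all 8 libraries, dCas13d-ADAR (4 libraries) against Repair.t1 (4 libraries); the dashed line marks equal levels. Orange points with SD bars are the 8 sites with a limma adjusted p below 0.05, and 71 of the 79 points lie above the line.

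The most highly edited sites were partly the same in Repair.t1 and dCas13d-ADAR and wholly different in DECOR. Among sites in all libraries of an editor, the highest mean levels in Repair.t1 were at positions 2763744 (0.483), 16302148 (0.481), 10421104 (0.462), 49426157 (0.462) and 49469892 (0.449). In dCas13d-ADAR they were at 10421104 (0.678), 14522319 (0.661), 16302148 (0.623), 10662921 (0.618) and 49378956 (0.608). In DECOR they were at 14626932 (0.592), 14626829 (0.562), 10802012 (0.55), 14626193 (0.533) and 14627532 (0.525), 4 of which lie in the dense stretch. None of these 5 DECOR positions was in a list of another editor.

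No difference between guides passed a test on chromosome 19. The mean of the median levels was 0.243 with NT and 0.237 with EZH2_A22 in Repair.t1, and 0.253 with NT and 0.25 with EZH2 in dCas13d-ADAR. Averaged over both editors, EZH2 minus NT was -0.00443 (two-sided exact permutation within editors, p = 0.5, where 36 arrangements allow 0.0556 at the lowest). In Repair.v2 it was -0.0173, with 2 libraries a side and too few sites for a test.

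Site by site, limma called 0 of 95 chromosome 19 sites between EZH2_A22 and NT in Repair.t1, where 0% of 1053 sites genome-wide were called. Of the 95, 7 had an unadjusted p below 0.05, as did 61 of the 1053. In dCas13d-ADAR limma called 0 of 256, where 0% of 1665 were called. Of the 256, 12 had an unadjusted p below 0.05, as did 87 of the 1665. The smallest adjusted p on the chromosome was 0.539 in Repair.t1 and 0.523 in dCas13d-ADAR (limma). On simulated data, the fit recovered 19% of changes of 1 log2 odds unit in Repair.t1 and 10% in dCas13d-ADAR. For changes of 2 units it recovered 89% and 76%, so smaller differences between guides could be missed. The libraries of the 2 guides did not overlap at 25 of the 95 sites, where 30.4% of all sites tested did not, and at 76 of the 256, where 31.7% did not. The largest differences are named here without a call. In Repair.t1 the mean level moved most upward from NT to EZH2_A22 at position 10421104, from 0.317 to 0.607, and most downward at 49469892, from 0.559 to 0.339. In dCas13d-ADAR it moved most upward at 50314663, from 0.432 to 0.721, and most downward at 14591125, from 0.571 to 0.272.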

How the data were processed

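Per the file headers, the authors deposited the A-to-G rate of each position as a fraction; levels on chromosome 19 ran from 0.08 to 0.846. The submitters' processing notes name cutadapt, STAR 2.6.1b, hg19 and GRCh37. How sites were called, at which thresholds and with what removal of variants is not given in the sources used here. Read counts, coverage and strand are not in the lists, so a level has no counting error here.

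Members, bins and tests were chosen with earlier results of these data known. Numbers, shares, densities and overlaps were described with mean and SD. Per-library summaries were compared by two-sided exact permutation over libraries, with p taken as 2 times the smaller tail. Site levels were fitted genome-wide in limma 3.58.1 (R 4.3.3) on log2 odds (0.01 added to level and complement), with guide as a covariate between editors. Benjamini-Hochberg adjustment covered all sites tested, at a threshold of 0.05. Bins were fitted with limma on log2 of sites per 1000 listed sites plus 0.5, for folds alone: a test had been planned, and its p-values are left out because density belongs to the rule that chose the sites. Sites and bins were named by rule: bins past the fit's threshold and sites called (up to 10 each way by size, with the 3 largest differences each way where fewer passed), the 5 densest bins and 5 highest sites per editor, sites in at least 2 Repair.v2 libraries or in every library of the other editors, and the 5 highest sites in every library of only 1 of Repair.t1 and dCas13d-ADAR. Position 1088522's window, the window from 51301001, and the DECOR stretch were chosen after their values were seen.

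The statistics were first tested on simulated data. Alternatives tried were a minimum level (0.1 or 0.2), only sites that both libraries of a group list, 50-base sharing, other bin sizes, offsets and filters, each library left out, 1 guide alone and a replicate block. Chosen after seeing the data were 1 site per 1 kb, leaving out the DECOR stretch, and 1 guide alone for shared sites. Replicate numbers did not pair libraries (correlations of deviations from -0.0146 to 0.0553 over 609 sites). No sequences are shown, because the reference tables at hand are of another build. Calculations used Python 3.11.15 with numpy 2.4.6 and pandas 2.3.3; figures were drawn with matplotlib 3.10.9.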

Additional observations from a re-analysis of the deposited data

Results flagged for a closer look

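In the dCas13d-ADAR libraries, the highest median level of chromosome 19 sites, 0.256 in NT replicate 1, stood apart from the other 3 libraries, which were all at 0.25. It was the only value so marked among 33 sets of 4 libraries examined by Dixon's criterion. That criterion marks about 1 set in 20 by chance when values do not tie. With the other 3 libraries tied, it marks any value that differs from them, so this mark carries no weight. No explanation was tested.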

How the results depend on the processing

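By share of the list the order stayed dCas13d-ADAR, DECOR, Repair.t1, Repair.v2 at every minimum level, when only sites of both libraries counted, with 1 site per 1 kb and without the DECOR stretch. At a level of at least 0.2 the mean numbers were 2.25 in Repair.v2, 260.3 in Repair.t1, 526.5 in dCas13d-ADAR and 333.5 in DECOR, with shares of 7.59% in Repair.t1 and 12.0% in dCas13d-ADAR. Sites in both libraries of a group numbered 1.5, 185.5, 406.5 and 269 in the same order, with shares of 7.99%, 8.98%, 13.99% and 13.0%. Of the 269 in DECOR, 48 lay in the dense stretch. With 1 site per 1 kb there were 290.5 in Repair.t1, 491.3 (12.1%) in dCas13d-ADAR and 352 (9.38%) in DECOR, and without the stretch 539 (9.57%) in DECOR.

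The median of Repair.t1 minus that of Repair.v2 no longer passed at 0.0353 (minimum level 0.1), 0.00723 (0.2), 0.0320 (NT alone) and 0.0433 (EZH2 alone), nor did that of dCas13d-ADAR at 0.0476, 0.0208, 0.0423 and 0.0567. With a library left out these ran from 0.0223 to 0.0473 and from 0.0341 to 0.0591; 3 libraries against 4 allow an exact p of 0.0571 at the lowest. DECOR minus Repair.v2 reversed to -0.00951 at 0.2 and ran from -0.00863 to 0.0163 with a library left out. In sites of both libraries, dCas13d-ADAR minus Repair.t1 passed, at 0.0107. On chromosome 19 minus elsewhere, that pair reversed to -0.00592 in sites of both libraries and ran from -0.00318 to 0.00634 with a library left out, reversing at -0.00294 without Repair.t1 EZH2_A22 replicate 1, at -0.00318 without its replicate 2 and at -0.00176 without dCas13d-ADAR NT replicate 1. The guide effect reversed to 0.00432 at 0.2 and 0.00144 in sites of both libraries. The causes were not tested.

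At the 79 shared sites the replicate block left the differences at 0.0767 and 0.0312 with an exact permutation p of 0.0556, the lowest of its 36 arrangements. The block changed no call count by more than 1 site. NT libraries alone gave 0.0920 and 0.0367 and EZH2 libraries alone 0.0614 and 0.0257, where 2 against 2 allow an exact p of 0.333 at the lowest. With a library left out the values ran from 0.0709 to 0.0800 and from 0.0267 to 0.0341.

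Sharing within 50 bases was 56.4% in DECOR, 56.7% within and 55.8% between guides in Repair.t1, 63.4% and 63.5% in dCas13d-ADAR, 67.8% between these 2 editors, 18.7% between Repair.t1 and DECOR and 24.6% between dCas13d-ADAR and DECOR. At a level of at least 0.2 the same shares were 39.6%, 46.5%, 45.2%, 51.5%, 53.1%, 58.2%, 0.423% and 1.58%. Elsewhere in the genome, sharing with DECOR within 50 bases was 13.9% for Repair.t1 and 15.4% for dCas13d-ADAR. At a level of at least 0.2 it was 0.874% and 1.33% there. Called sites ranged from 4 to 10 with a library left out. The median log2 fold of chromosome 19 bins kept its sign in every alternative run, from 0.46 to 0.56 (dCas13d-ADAR against Repair.t1) and from -0.19 to -0.11 (DECOR) with a library left out, at 0.43 and -0.08 with each 1 kb window counted once, and at 0.52 and -0.15 with the replicate block. For DECOR the median over all bins of the genome was also below 0 in every run, so this sign is not particular to chromosome 19. At a level of at least 0.2 that median was -0.17, beside -0.11 on chromosome 19, the other way from the main run. With each 1 kb window counted once, the medians over all bins were 0.13 (dCas13d-ADAR against Repair.t1) and -0.08 (DECOR). Unknown depth limits every number of sites.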
